A study of Gallus gallus with 12 samples.

Results

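The cytosolic ribosomal protein genes were followed across 6 groups of embryonic chicken skin. They were the rows whose symbol was RPL, RPS or RPLP followed by a number and at most a short suffix, with the RPS6K kinases left out. This rule, which reads symbols alone, took 65 of the 12297 rows of the table. It leaves out ribosomal proteins with other symbols, such as RPSA of the 40S subunit. By symbol prefix, 24 of the 65 were counted as small (40S) subunit proteins, 38 as large (60S) subunit proteins and 3 as stalk proteins. The stalk proteins are RPLP0, RPLP1 and RPLP2. The 38 include RPL7L1, which in human cells takes part in assembly of the large subunit. All 65 passed the filter on low values, at least 1 CPM in at least 2 libraries. CPM is the read count scaled by the authors to an effective library size, so that the summed CPM differs between libraries.

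RNA of untreated White Leghorn embryos was sequenced, with skin labelled as feather or as scale. Feather skin was dorsal skin at embryonic day 7 (E7, Hamburger and Hamilton stage 31) and dorsal, thigh and wing skin at E9 (stage 35), and scale skin was tarsometatarsal skin, from the lower leg, at E9 (stage 35) and E11 (stage 37). Each of these 6 groups had 2 libraries, with 13164609 to 20641980 reads per library, as recovered from the CPM of the rows. The titles name dermis and the tissue labels name skin, and nothing states that the 2 libraries of a group came from separate embryos, so that p-values may measure technical spread alone.

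The eukaryotic ribosome is built from a small subunit, which binds the mRNA and reads its codons, and a large subunit, which joins amino acids and releases the chain through an exit tunnel. Each subunit holds ribosomal RNA and a set of proteins made in near-equal numbers. Their mRNAs are among the most abundant of growing cells, and in vertebrates they share an oligopyrimidine start (TOP mRNAs), through which mTOR signalling acts on their translation.

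Some libraries stood apart. In thigh E9 replicate 2 the 13 mitochondrial rows made up 13.9% of the summed CPM, against 3.51% to 5.12% in the other 11 libraries. The thigh replicates had a Spearman correlation of 0.970 across all rows, against 0.987 to 0.996 in the other 5 groups. In birds the W chromosome is carried by females, and SPINW, a W-linked gene, stood at 0.26 and 0.15 CPM in the dorsal E9 libraries and at 17.0 to 42.2 CPM in the other 10. ATP5A1W, also W-linked, stood at 17.4 and 17.2 CPM in the dorsal E9 libraries and at 52.8 to 196 CPM in the other 10. Comparisons of dorsal E9 with dorsal E7, or with other skin at E9, thus also differ in W-linked signal. For every gene in them, age or region and embryo sex cannot be told apart. The labelled dermis was checked against its markers: the 5 fibroblast markers measured, among them COL3A1 and LUM, stood at a sum of 10470.0 to 29634 CPM in every library.

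Together the 65 genes took up 5.97% to 9.66% of a library. Their share was 7.05% and 7.22% in dorsal E7 and 9.43% and 8.22% in dorsal E9. In the wing at E9 it was 9.51% and 9.37%. In scale skin it was 7.69% in both libraries at E9 and 9.66% and 8.84% at E11. Thus the older libraries of dorsal and of scale skin held more ribosomal protein mRNA than the younger ones, without overlap, and wing skin held more than scale skin of the same age. The thigh did not give 1 level: its libraries stood at 5.97%, the lowest of the 12, and 9.11%. With the mitochondrial rows left out of the total, the thigh shares were 6.30% and 10.6%, the lowest and the highest of all libraries. In such bulk samples, fewer cells of a type and less RNA per cell cannot be told apart.

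**Figure D1:**
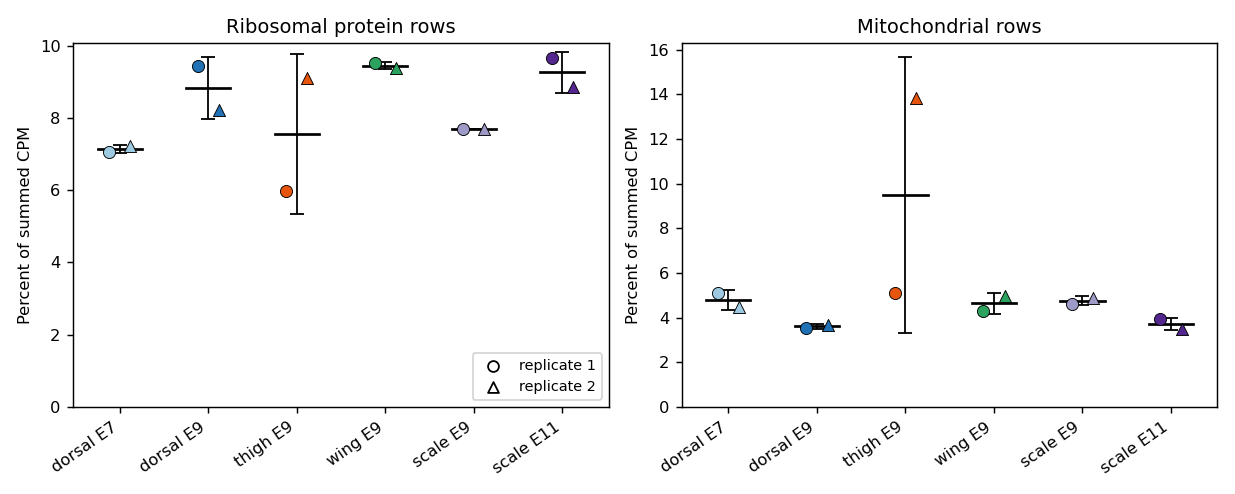
Share of the summed CPM (%, vertical axis) taken by the 65 ribosomal protein rows (left) and by the 13 mitochondrial rows (right) in each of the 6 groups. Circles are replicate 1, triangles replicate 2, lines the mean and bars the SD (n = 2). The thigh replicates differ in both panels, at 5.97% and 9.11% on the left and 5.12% and 13.9% on the right.

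The subunits kept a nearly fixed proportion. The 40S genes made up 38.0% to 39.6% of the summed ribosomal protein CPM and the 60S genes 55.5% to 57.9%. The 3 stalk genes varied more in relative terms. They made up 3.69% in thigh E9 replicate 2, 5.42% in scale E11 replicate 1, and between 4.29% and 5.27% in the other 10 libraries. These shares are of reads and not of molecules, since CPM is not divided by transcript length.

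Single genes moved with the family. The log2(CPM + 1) of a gene had a Pearson correlation with the mean profile of the other ribosomal protein genes of 0.905 in the median over 12 libraries, with RPL34 left out, and 47 of 64 exceeded 0.8. Of the 12212 other rows, 27 did so. These correlations describe libraries that share depth, groups and the thigh replicates, and carry no test. The least alike were RPL10L at 0.05, RPS3 at 0.17, RPS2 at 0.20 and RPL7L1 at 0.53. The median SD of a gene over the 12 libraries was 0.29 on the log2 scale, and 0.13 once each library was set relative to its median ribosomal protein gene.

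Among the rows outside the family, the 10 with the profile most like it included parts of the translation machinery. EEF1D and EEF1B2, subunits of the factor that recharges elongation factor 1A with GTP, had correlations of 0.926 and 0.860. EIF3H, a subunit of initiation factor 3, stood at 0.887, and GNB2L1, also called RACK1, a scaffold protein bound to the 40S subunit, at 0.900. The highest, 0.977, was a row listed here by its transcript identifier, ENSGALT00000043750.1. The others were SERHL2 at 0.934, ZNF593 at 0.903, SIRT6 at 0.880, DHRS13 at 0.877 and C6ORF162 at 0.850. Without the thigh libraries the correlations of these 10 rows were between 0.691 and 0.973.

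Some rows held few reads. RPL34, a 60S protein, had 0.00 to 2.52 CPM, and RPS3, a 40S protein at the entry of the mRNA channel, had 8.72 to 34.7 CPM. RPS3 stood at 19.2 and 14.3 CPM in dorsal E7, 28.2 and 23.2 in dorsal E9, 18.7 and 8.72 in thigh E9, 34.7 and 27.5 in wing E9, 13.3 and 21.7 in scale E9 and 24.4 and 26.2 in scale E11. Rows are single transcripts, and ribosomal protein genes have near-identical copies in vertebrate genomes, so that reads of a copy or of another transcript may be missing or added, and low rows are uncertain.

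The genes with the smallest spread over all 12 libraries were RPL3, RPLP2 and RPL27A. Without thigh E9 replicate 2 they were RPL7L1, RPL6 and RPL7A, with SDs of 0.15, 0.17 and 0.17, and RPL3 had 0.22. RPL3, a 60S protein near the peptidyl transferase centre, had an SD of 0.21 over the 12 libraries. It stood at 2184 and 2128 CPM in dorsal E7, 2872 and 2587 in dorsal E9, 1991 and 2378 in thigh E9, 2955 and 2683 in wing E9, 1950.2 and 2324 in scale E9 and 2882 and 2655 in scale E11. RPL27A, another 60S protein, ranged from 953 to 1558 CPM, both ends being thigh libraries. Both genes were lower in dorsal E7 and scale E9 than in the older skin of the same region, without overlap.

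In the thigh, nearly every ribosomal protein gene differed between the replicates. Replicate 2 was above replicate 1 for 60 of 64 genes, RPL34 again left out, against 48.2% of all rows, with a median ratio of 1.86. These are ratios of CPM, and the summed CPM of all rows was also higher in replicate 2, so that the shares of the family differed by less. Replicate 2 was over 1.5-fold higher for 51 and over 2-fold higher for 22, against 11.9% and 2.13% of all rows with at least 1 CPM in both libraries. Replicate 1 was the lowest of the 12 libraries for 49 of the 65 genes, and replicate 2 was the highest for 41. Shifts to 1 side were seen in other groups too, at a smaller size. In dorsal E9 all 64 genes were lower in replicate 2, with a median ratio of 0.858, against 50.4% of all rows. In the wing 55 and in scale E11 52 of 64 were lower in replicate 2, against 51% and 46.5% of all rows. The median ratios of those groups, dorsal E7 and scale E9 were between 0.913 and 1.04.

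**Figure D2:**
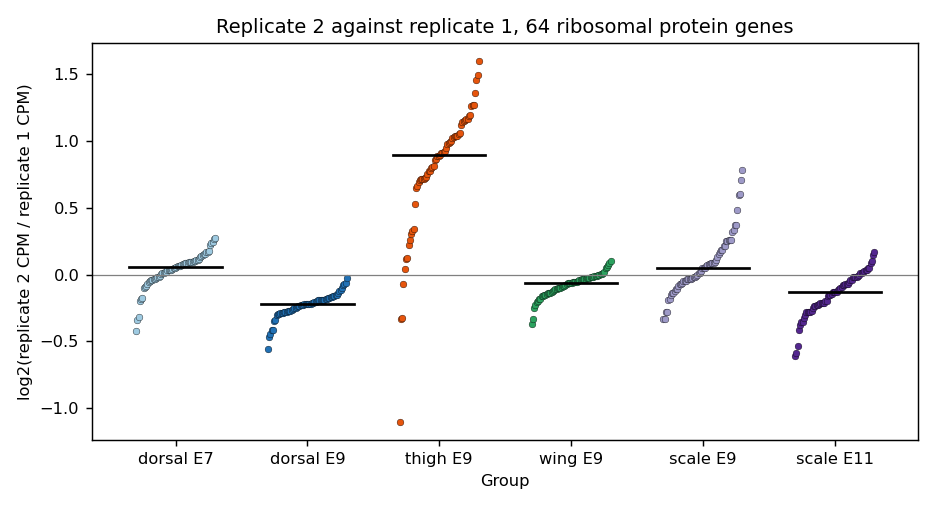
Replicate 2 over replicate 1, as log2 of the CPM ratio (vertical axis), for 64 ribosomal protein genes in each group, sorted from low to high, with the median as a line. In thigh E9 the median is 0.89 on the log2 scale, and in the other groups it is between -0.22 and 0.05.

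RPL23, a 60S protein, differed most. It stood at 744 and 2249.8 CPM in the thigh libraries, a ratio of 3.02, and at 856 to 1229 CPM in the other 10. RPL23A and RPL39, 60S proteins of the exit tunnel region, had ratios of 2.82 and 2.75, and RPS24 and RPS25 of the 40S subunit 2.57 and 2.41. RPL39 stood at 680.3 and 1868 CPM in the thigh and at 762 to 1144 CPM elsewhere. These genes were above every other library in thigh replicate 2 and below every other library in thigh replicate 1, apart from RPS25, which was lower in dorsal E7.

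A few genes did not follow. RPS3 had a thigh ratio of 0.466, RPS2 of 0.793, RPL10L of 0.798 and RPL37A of 0.954. RPLP0, the protein that anchors the stalk, had a ratio of 1.03, RPS16 1.09, RPLP2 1.09, RPL12, which binds beside the stalk base, 1.17, and RPL3 1.19. RPS2, a 40S protein, stood at 1939 and 1538 CPM in the thigh and at 1874 to 3159 CPM in the other libraries. In the heat map these genes form the uppermost rows, pale or blue in the second thigh column.

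**Figure D3:**
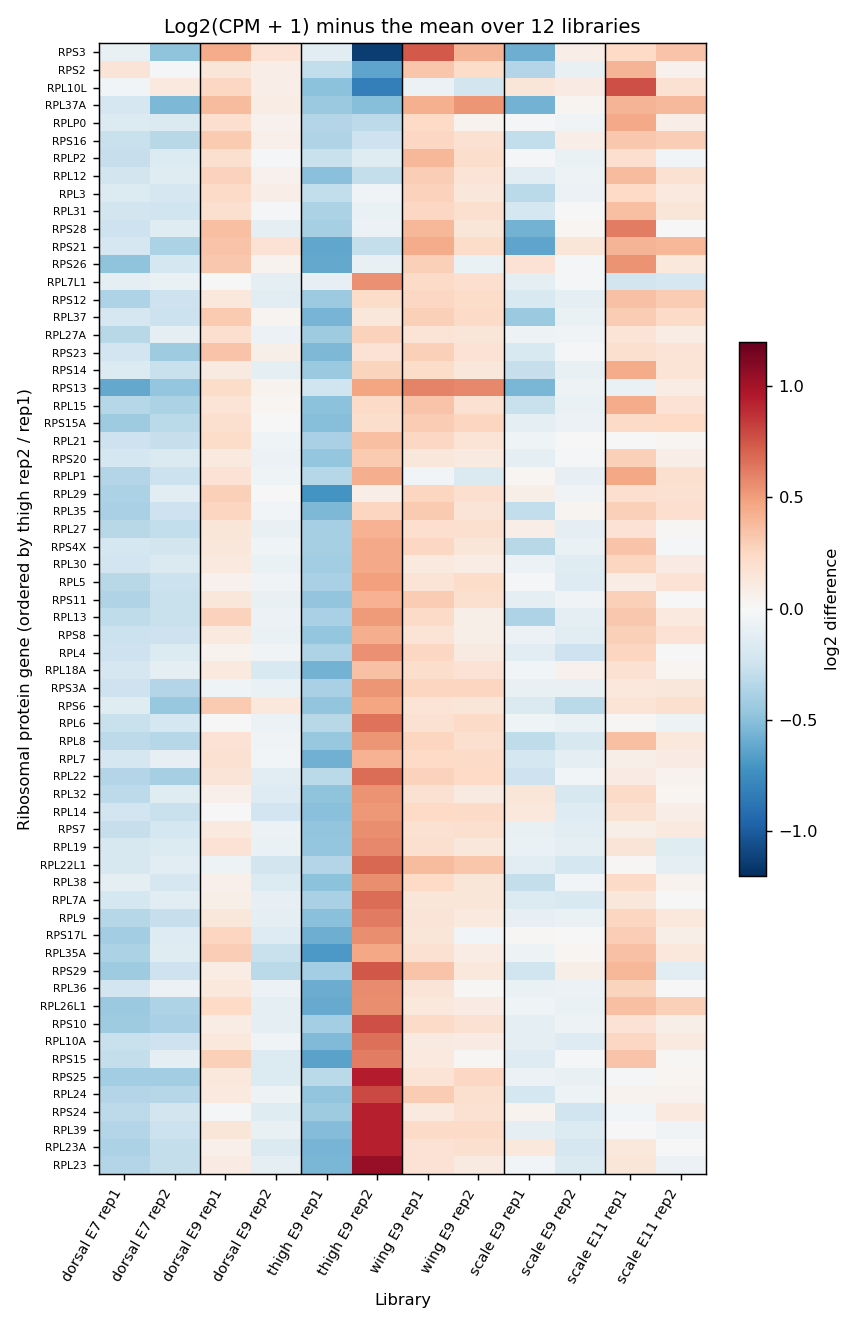
Log2(CPM + 1) of 64 ribosomal protein genes (rows, ordered by the ratio of the thigh replicates) in the 12 libraries (columns), as the difference from the mean of the gene over the libraries. Thigh E9 replicate 1 is blue for most genes and replicate 2 is red, from RPS3 at a ratio of 0.466 at the top to RPL23 at 3.02 at the bottom, and dorsal E7 and scale E9 are mostly pale blue.

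The groups were compared with limma on log2(CPM + 1), with p-values adjusted by the Benjamini-Hochberg method over all 12277 rows tested and calls at 0.05. With all 12 libraries, 7 of 65 ribosomal protein genes differed among the 6 groups, against 44.6% of all rows. They were RPS13, RPS16, RPS21 and RPS3 of the 40S subunit and RPL10L, RPL12 and RPL37A of the 60S subunit. The number depended on the thigh libraries: it was 62 without thigh replicate 2 (52.2% of all rows), 60 without thigh replicate 1 (67.5%) and 42 without both (48.6%). Without any other single library it was between 3 and 6, at 3 without dorsal E7 replicate 2, scale E11 replicate 1 or either wing library. The counts without other single libraries are given without the share of all rows called. With all 12 libraries the count was also 7 in edgeR's quasi-likelihood test on recovered reads, against 44.4% of all rows.

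The study compared ages within a region, and here the direction was almost uniform. In dorsal skin the age step is also a step in W-linked signal, so that age and embryo sex cannot be told apart there. From E7 to E9 in dorsal skin 64 of 65 genes had a positive log2 difference, with a median of 0.31 beside 0.03 over all rows. For 51 genes both dorsal E9 libraries stood above both E7 libraries, a pattern that 37.7% of all rows showed. From E9 to E11 in scale skin 64 of 65 were positive, with a median of 0.27 beside 0.01. For 49 genes both E11 libraries stood above both E9 libraries, against 23.9% of all rows. These comparisons share no library. The pattern held in both regions for 41 of the 65 genes, against 15.4% of all rows. The 41 are 80.4% of those with the pattern in dorsal skin and 83.7% of those in scale skin. Of all rows 1888 had it in both regions, beside 4630 in dorsal and 2930 in scale skin. No gene was higher with age in 1 region and lower in the other without overlap. Lower with age without overlap were RPL34 in dorsal skin, as were 32.8% of all rows, and RPL7L1 in scale skin, as were 21.9%. The genes moved together between libraries, so that these counts of genes are not counts of independent observations. Replicates of 1 group could differ as uniformly, as for all 64 genes in dorsal E9 and 60 of 64 in the thigh. RPSA, outside the symbol rule, overlapped between the ages in both regions. It stood at 2771 and 2928 CPM in dorsal E7 and 3035 and 2641 in dorsal E9. In scale skin it stood at 3147 and 2773 CPM at E9 and 3671 and 2785 at E11. GNB2L1, also outside the rule, was higher at the older age in both regions without overlap.

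With all 12 libraries no ribosomal protein gene passed the test at either age step, against 20.1% of all rows in dorsal and 5.83% in scale skin. At an unadjusted p of 0.05, 6 and 5 of the 65 did in limma and 7 and 8 in edgeR, which called 0 in both after adjustment, against 20.1% and 5.37% of all rows. Without the thigh libraries, which enter these comparisons only through the shared estimate of spread, 20 genes rose from E7 to E9 in dorsal skin, 8 of the 40S and 12 of the 60S subunit. That is 30.8% of the 65, against 16.9% of all rows that rose. In scale skin 6 rose from E9 to E11, which is 9.23%, against 7.0% of all rows. None fell in either. That choice was made after the data were seen, and the counts were the same without either thigh library alone. RPL15, RPL37, RPL37A and RPL8 rose in both regions, 4 of 65 against 4.79% of all rows. They are 20.0% of those called in dorsal and 66.7% of those called in scale skin. Of all rows 588 rose in both, beside 2080 that rose in dorsal and 859 in scale skin.

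**Figure D4:**
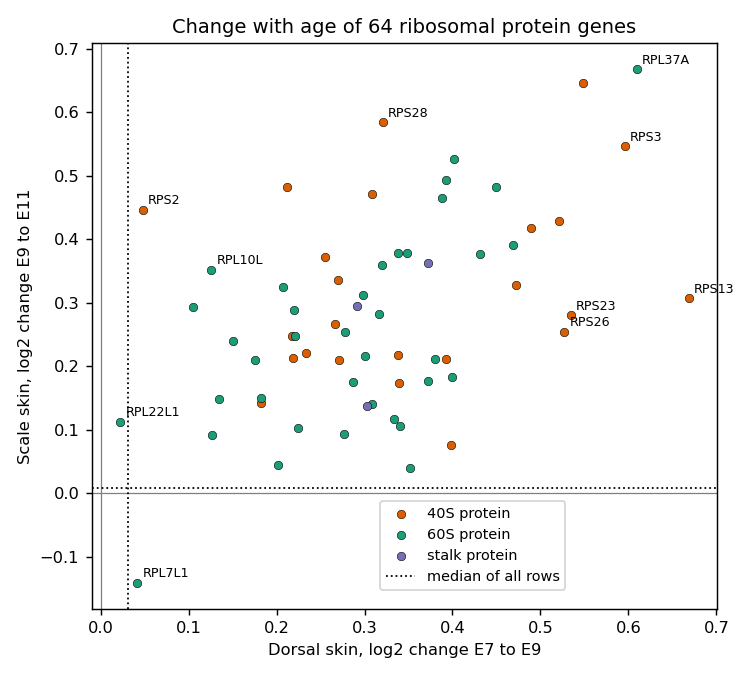
Log2 difference from E7 to E9 in dorsal skin (horizontal axis) and from E9 to E11 in scale skin (vertical axis) for 64 ribosomal protein genes, coloured by subunit, with the medians of all rows dotted. Nearly all genes lie above and to the right of the dotted lines, with RPL7L1 below 0 in scale skin.

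RPS13, a 40S protein, had the largest positive difference with age in dorsal skin. It stood at 413 and 458 CPM in dorsal E7 and 738 and 650.1 in dorsal E9. In scale skin it stood at 432 and 605 CPM at E9 and 598 and 671 at E11, where the groups overlap. The wing libraries were the highest, at 954 and 943 CPM, and the thigh libraries stood at 533 and 877. The dorsal difference was 0.67 ± 0.23 on the log2 scale (SE, adjusted p = 0.060 in limma) with all libraries, and 0.67 ± 0.15 (adjusted p = 0.00545) without the thigh. In scale skin it was 0.31 ± 0.15 without the thigh (adjusted p = 0.225 in limma), and the difference between the regions in this step did not pass.

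RPL37A, a small 60S protein with a zinc finger, was high in the older skin of both regions. It stood at 915 and 724 CPM in dorsal E7 and 1373 and 1123 in dorsal E9. In scale skin it stood at 709.6 and 1077 CPM at E9 and 1397 and 1382 at E11. Neither pair of groups overlapped. The log2 differences were 0.61 ± 0.18 in dorsal (adjusted p = 0.0278 in limma) and 0.67 ± 0.18 in scale skin (adjusted p = 0.0392) without the thigh, and 0.61 ± 0.22 (adjusted p = 0.0709) and 0.67 ± 0.22 (adjusted p = 0.108) with all libraries.

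RPS21, a 40S protein, showed the same order without reaching a call with age. It stood at 286 and 253 CPM in dorsal E7 and 417 and 373 in dorsal E9. In scale skin it stood at 211 and 365 CPM at E9 and 437 and 433 at E11. RPL8, which lies at the peptidyl transferase centre, stood at 1672 and 1636 CPM in dorsal E7, 2342 and 2012 in dorsal E9, 1682 and 1815 in scale E9 and 2671 and 2268 in scale E11. Its differences were 0.39 ± 0.13 in dorsal (adjusted p = 0.0367 in limma) and 0.49 ± 0.13 in scale skin (adjusted p = 0.0286) without the thigh.

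The size of the step was compared between the regions, and 0 of 65 genes passed, against 4.98% of all rows, with 0 at an unadjusted p of 0.05 in limma and 1 in edgeR, which also called 0, against 4.2% of all rows. The median difference of the steps was -0.02 on the log2 scale. The steps also differ in the ages that they span.

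The 3 genes of the family on chromosome Z, by the RefSeq gene table of assembly GRCg7b, are RPS6, RPS23 and RPL37. A chromosome was found there for 61 of the 65 symbols. RPS6, the 40S protein phosphorylated by S6 kinases, stood at 3080.3 and 2475 CPM in dorsal E7 and 4230.0 and 3711 in dorsal E9. RPS23, a 40S protein of the decoding centre, stood at 1220.1 and 1066 and at 1815 and 1504 CPM. RPL37, a 60S protein, stood at 897 and 865 and at 1284 and 1055 CPM. All 3 were higher in dorsal E9, the libraries with the low W-linked signal, by 0.52, 0.53 and 0.40 on the log2 scale. The median of the 467 other Z rows was 0.23 there, against 0.02 over 9380 rows of other chromosomes, while the 62 family members not placed on Z had a median of 0.30. From E9 to E11 in scale skin, where W-linked signal was present in all libraries, the 3 genes differed by 0.43, 0.28 and 0.53 and the median of the other Z rows was 0.02.

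Other genes of protein synthesis were read against the share of all rows called at the same step. From E7 to E9 in dorsal skin 12.2% of all rows rose and 7.96% fell, and without the thigh 16.9% and 12.8%. Of 83 factors of ribosome assembly measured, 6 fell and 0 rose from E7 to E9, with a median of -0.26 on the log2 scale. Without the thigh 20 fell and 1 rose. NOC2L, needed for export of the large subunit precursor in yeast, stood at 149 and 151 CPM in dorsal E7 and 78.2 and 81.6 in E9 (-0.90 ± 0.19, adjusted p = 0.00431 in limma). WDR3, of the small subunit processome, stood at 116 and 99.4 and at 52.8 and 63.6 CPM (-0.88 ± 0.15, adjusted p = 0.00127 in limma). NAT10, an acetyltransferase of ribosomal RNA, fell by 0.71 ± 0.17 (adjusted p = 0.0102 in limma). In scale skin 0 of 83 passed, and without the thigh 6 fell and 1 rose, where 3.99% of all rows fell and 7.0% rose. None of the 13 genes of RNA polymerase I and 5S transcription passed at either step with all libraries.

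Mitochondrial ribosomal proteins, which build the separate ribosome of the mitochondrion, had a median of -0.26 in dorsal skin, and 3 of 58 fell. At this step 12.2% of all rows rose and 7.96% fell. In scale skin 0 of 58 passed. Of 12 elongation factors and other TOP transcripts, 1 rose and 1 fell in dorsal skin, with a median of 0.30. TPT1, a TOP mRNA that encodes the translationally controlled tumour protein, stood at 1655 and 1784 CPM in E7 and 3113 and 2873 in E9 (0.80 ± 0.22, adjusted p = 0.0187 in limma). BTF3, a subunit of the nascent polypeptide-associated complex, fell from 27.8 and 40.02 CPM to 1.74 and 1.80 CPM (-3.63 ± 0.33, adjusted p = 5.89e-06 in limma), and it stood between 17.7 and 51.3 CPM in the 8 libraries of the other 4 groups. Its low libraries are the dorsal E9 libraries, in which the W-linked SPINW also stood near 0, and the part of that in the fall was not tested. Without the thigh 6 of the 12 rose and 1 fell. EIF3H, at 346 and 381 CPM in E7 and 615 and 596 in E9, was among those that rose (0.74 ± 0.10, adjusted p = 0.000152 in limma).

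Of 35 initiation factors 1 rose, EIF4E3, a cap-binding protein, and 1 fell, EIF2S1, a subunit of initiation factor 2, in dorsal skin. Of all rows 12.2% rose and 7.96% fell there. Of 25 genes of MYC and mTOR signalling, 5 rose in dorsal and 3 in scale skin and 0 fell in either, where 12.2% and 4.37% of all rows rose. MYC, a transcription factor that in mammals activates ribosomal protein genes, stood at 8.68 and 15.6 CPM in dorsal E7 and 39.6 and 38.9 in dorsal E9 (1.67 ± 0.28, adjusted p = 0.00102 in limma). MXD4, which in mammals opposes MYC at shared sites, rose as well, by 1.61 ± 0.18 (adjusted p = 2.99e-05 in limma), and DEPDC6, the table's symbol for the mTOR inhibitor DEPTOR, by 1.35 ± 0.26 (adjusted p = 0.0027). In scale skin MXD4 rose by 0.81 ± 0.18 (adjusted p = 0.0155 in limma) and DEPDC6 by 1.13 ± 0.26 (adjusted p = 0.0237). MYC stood there at 24.45 and 18.3 CPM at E9 and 25.7 and 19.4 at E11. The related MYCN stood at 26.7 and 35.5 CPM in dorsal E7 and 27.3 and 28.3 in dorsal E9. MYCL stood at 17.0 and 23.9 CPM in dorsal E7 and 17.7 and 13.9 in dorsal E9. The part of these regulators in the ribosomal protein differences was not tested. None of 9 S6 kinases passed at either step.

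Cell cycle genes went the other way from the ribosomal proteins in dorsal skin, where 24 of 27 fell from E7 to E9 with a median of -0.89. CDC6, which licenses replication origins, stood at 23.0 and 24.5 CPM and then at 11.8 and 8.57 (-1.16 ± 0.31, adjusted p = 0.0176 in limma). In scale skin 0 of 27 passed, with a median of -0.33. Markers of other cell types moved at the same step. All 5 endothelial markers rose in both regions, from sums of 452 and 464 CPM to 1142 and 915 in dorsal skin and from 271 and 198 to 562 and 672 in scale skin. Of 7 keratinocyte markers 4 rose in dorsal skin, from a sum of 24.4 and 33.6 to 74.5 and 76.8 CPM, and 0 passed in scale skin. Of 5 melanocyte markers 1 rose and 1 fell in dorsal skin, with a sum of 145 and 135 CPM at E7 and 47.1 and 38.9 at E9, and of 5 Schwann cell and neuron markers 1 rose and 1 fell, with a sum of 137 and 155 and then 61.95 and 58.3 CPM. Of 4 cartilage markers 2 rose in dorsal skin, while their sum was 335 and 346 CPM at E7 and 305 and 293 at E9. Of 5 red blood cell markers 2 fell there, with overlapping sums of 703 and 1146 and then 838 and 811 CPM. Of 5 fibroblast markers 1 rose in each region. The 2 muscle markers did not pass, and their sum was 63.8 CPM in dorsal E9 replicate 1 and 0.61 in replicate 2. Every endothelial and keratinocyte marker measured was above 0 in all 12 libraries. The part of these cell types in the ribosomal protein differences was not tested.

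Scale-forming skin at E9 was set against the mean of the 3 feather-forming regions at E9. Of the ribosomal protein genes 63 of 65 were lower in scale skin, with a median of -0.19 on the log2 scale beside -0.01 over all rows, and 0 passed the test, against 16.6% of all rows. In limma 1 had an unadjusted p under 0.05, and edgeR gave 1 and called 0, against 15.8% of all rows. RPS13 came closest, at -0.58 ± 0.19 (adjusted p = 0.0537 in limma).

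The comparison rested on which region stood for feathers. Scale E9 was below both wing libraries for 59 of 65 genes, against 29.7% of all rows, and below both dorsal E9 libraries for 26, against 31.8%. It was below both thigh libraries for 0, against 28.1%, and above both for 5, against 27.5%. For the other genes the scale E9 and thigh libraries overlapped. Without the thigh libraries 11 genes were called, all lower in scale skin, against 11.3% of all rows that were lower. They were RPS3, RPS13, RPS21, RPS6 and RPS2 of the 40S and RPL37A, RPL37, RPL8, RPL3, RPL15 and RPL22L1 of the 60S subunit, with differences from -0.69 for RPS3 to -0.27 for RPL22L1. RPS13 gave -0.66 ± 0.13 (adjusted p = 0.00292 in limma). Of these genes, RPS6 and RPL37 lie on chromosome Z. With all libraries, the median of the 467 other Z rows was -0.12, against -0.01 over 9380 rows of other chromosomes. The part of Z linkage in these calls was not tested. Without thigh replicate 1 the count was 37, all lower, against 14.9% of all rows, and without thigh replicate 2 it was 1, RPS13, against 10.9%. It was also 1 without scale E9 replicate 2. Of markers of other cell types, 4 of 7 for keratinocytes were higher in scale skin, at a sum of 129 and 298 CPM against 38.8 to 129 in the feather regions. Of 5 endothelial markers 4 were lower, at a sum of 271 and 198 against 283 to 1142 CPM, and 4 of 5 for red blood cells were lower, at 261 and 146 against 143 to 967 CPM. Of 4 cartilage markers 1 was higher, at a sum of 872 and 1018 CPM against 153 to 361 in the feather regions. With all libraries 16.6% of all rows were called in this comparison, in either direction. The part of these cell types in the result was not tested.

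Wing and dorsal skin at E9 overlapped in their summed shares. Relative to dorsal E9, 61 of 65 genes had a positive difference in the wing, with a median of 0.16 on the log2 scale beside -0.03 over all rows. Under quantile normalization 39 of 65 were positive, with a median of 0.04 beside 0.04 over all rows. The summed share was then 9.02% in dorsal and 8.89% in wing skin. The 1 gene then called, RPS6, was lower in the wing and lies on chromosome Z. Without that normalization, the median of the 467 other Z rows was -0.21, against -0.02 over 9380 rows of other chromosomes. The part of Z linkage in the RPS6 call was not tested. For 36 genes both wing libraries stood above both dorsal libraries, against 34.2% of all rows. None passed with all libraries, against 20.1%, and the count at an unadjusted p of 0.05 was 0 in limma and in edgeR, which called 0 against 20.3% of all rows. Without the thigh 3 were called higher, against 13.4% of all rows: RPL22L1 by 0.50 ± 0.10 (adjusted p = 0.00354 in limma), RPS13 by 0.45 ± 0.15 (adjusted p = 0.0374) and RPS3A by 0.33 ± 0.11 (adjusted p = 0.0485). RPS3A, a 40S protein, stood at 3093 and 3033 CPM in dorsal and 3831 and 3844 in wing skin.

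Ribosome assembly factors were higher in the wing than in dorsal skin for 6 of 83 and lower for 0, with a median of 0.33, where 7.62% of all rows were higher. Without the thigh 37 were higher, where 13.4% of all rows were. Of the mitochondrial ribosomal proteins 1 of 58 was higher, and 20 without the thigh. Cell cycle genes were higher for 19 of 27, and all 5 endothelial markers were lower, where 20.1% of all rows were called in either direction. This comparison and the dorsal age step share the dorsal E9 libraries.

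Thigh and dorsal skin at E9 differed in 5 ribosomal protein genes, all lower in the thigh, against 16.5% of all rows that were lower. The median over the 65 was -0.04 on the log2 scale beside -0.05 over all rows. RPL10L stood at 449.8 and 359 CPM in the thigh and 756 and 669 in dorsal skin (-0.82 ± 0.21, adjusted p = 0.0101 in limma). RPL37A stood at 776 and 740.0 in the thigh, below its dorsal values (-0.71 ± 0.22, adjusted p = 0.0281 in limma). RPS21, at 213 and 269, and RPS3 were lower by a similar margin (-0.72 ± 0.23 and -0.94 ± 0.31, adjusted p = 0.0295 and 0.0362 in limma). RPL12, at 659 and 768 CPM against 1135 and 967, was the fifth (-0.56 ± 0.18, adjusted p = 0.0321 in limma). The thigh libraries of all 5 lay below both dorsal libraries. In edgeR 4 were called, against 15.4% of all rows that were lower, and RPS3 was not (adjusted p = 0.0503).

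The same genes, with RPS2 in place of RPL10L, were higher in wing than in thigh skin, against 9.25% of all rows that were higher. RPL37A stood at 1418 and 1521 CPM in the wing (0.95 ± 0.22, adjusted p = 0.00895 in limma) and RPS3 gave 1.21 ± 0.31 (adjusted p = 0.016). RPS21 differed by 0.79 ± 0.23 (adjusted p = 0.0254 in limma), RPS2 by 0.74 ± 0.23 (adjusted p = 0.0358) and RPL12 by 0.63 ± 0.18 (adjusted p = 0.0259). These comparisons share the thigh libraries. In edgeR 5 were called, against 8.84% of all rows. The thigh libraries of each called gene lay below both wing libraries. The calls depended on single libraries, and each was lost in 2 to 7 of the alternatives tried. The counts that follow are given without the share of all rows called in the same fit. The thigh and dorsal count was 0 without dorsal E9 replicate 1 and 2 without dorsal E9 replicate 2. The wing and thigh count was 0 without wing replicate 1, 1 without wing replicate 2 and 3 without either dorsal E7 library.

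The choice of the thigh library set the sign for most of the family. With thigh replicate 1 alone, 35 genes were lower than in dorsal skin and 0 higher, with a median of -0.49, against 11.7% of all rows that were lower. With replicate 2 alone, 33 were higher and 6 lower, with a median of 0.41, against 21.2% and 26.9% of all rows. Relative to the thigh, the wing had 56 higher and 0 lower with replicate 1 alone, against 8.1% of all rows that were higher. With replicate 2 alone it had 7 higher and 18 lower, against 20.0% and 18.3% of all rows. In these fits the lone thigh library is assumed to vary like the other groups. RPL10L, RPL12 and RPL37A are examples of genes low in either library, and RPL23, RPL23A and RPS24 of genes below both dorsal libraries in replicate 1 and above both in replicate 2. The part of mitochondrial RNA in this split was not tested.

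**Figure D5:**
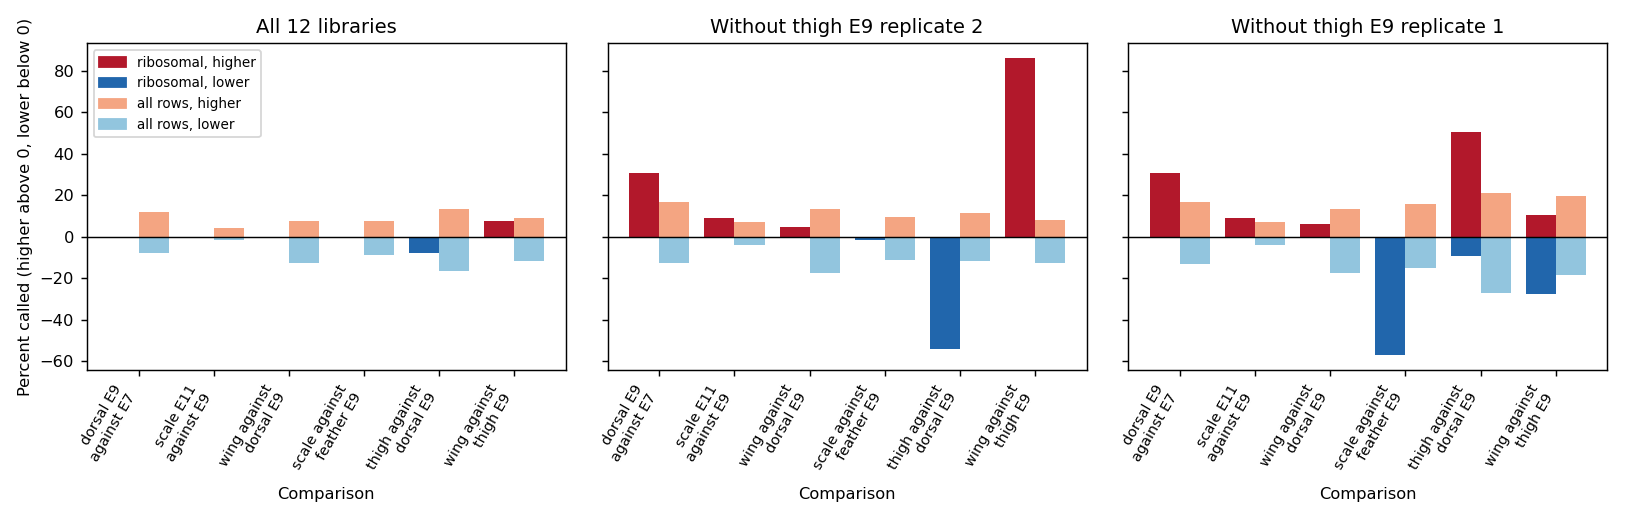
Percent of the 65 ribosomal protein genes (dark bars) and of all 12277 rows (pale bars) called higher (above 0) or lower (below 0) in 6 comparisons, with all 12 libraries, without thigh E9 replicate 2 and without thigh E9 replicate 1. For thigh against dorsal skin the family changes from 35 lower without replicate 2 to 33 higher without replicate 1.

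Paralogs gave values of their own. RPL22 is a 60S protein that binds RNA and can be dispensed with in mice, where its loss raises its paralog RPL22L1. RPL22L1 stood at 358 and 371 CPM in dorsal E7, 392 and 350.4 in dorsal E9, 319.8 and 658 in thigh E9, 533 and 513 in wing E9, 375 and 354 in scale E9 and 412 and 376 in scale E11. RPL22 stood at 316 and 305 CPM in dorsal E7 and 447 and 365 in dorsal E9. The ratio of RPL22L1 to RPL22 was 1.14 and 1.22 in dorsal E7, 0.875 and 0.960 in dorsal E9, 1.09 and 1.08 in wing E9, 1.11 and 0.901 in scale E9, 0.957 and 0.909 in scale E11 and 0.996 and 1.02 in the thigh. The ratio was thus above 1 in dorsal E7 and wing skin and below 1 in dorsal E9 and scale E11, and it was close to 1 in both thigh libraries, where each gene was at 319.8 to 321 CPM in replicate 1 and 642 to 658 CPM in replicate 2.

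RPL7L1, which in human cells takes part in assembly of the large subunit, did not follow its parent RPL7. RPL7L1 stood at 183 and 195 CPM in scale E9 and 169.7 and 172 in scale E11, while RPL7 stood at 2115 and 2250.5 and at 2560.3 and 2619 CPM. The ratio was 0.0864 and 0.0865 at E9 and 0.0663 and 0.0657 at E11, without overlap. In dorsal skin it was 0.0861 and 0.0822 at E7 and 0.0718 and 0.0770 at E9, again without overlap, and it was 0.0808 and 0.0795 in the wing and 0.113 and 0.0887 in the thigh.

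The table also held RPS4X, and RPL26L1, RPS17L and RPL10L without rows for the parent genes. RPL26L1 stood at 1013 and 1072 CPM in dorsal E7 and 1629 and 1277 in dorsal E9. It rose without the thigh libraries, by 0.47 ± 0.12 on the log2 scale (adjusted p = 0.015 in limma). RPS17L ranged from 355 to 783 CPM and RPS4X, the X-linked form in mammals, from 1534 to 2774 CPM, with both ends in the thigh. RPL10L, known in mammals as a testis form, ranged from 359 CPM in thigh replicate 2 to 1083 in scale E11 replicate 1, where the other library stood at 720.4. Which gene copies these rows stand for is not settled by the table.

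The stalk proteins recruit elongation factors to the ribosome. RPLP0 stood at 1464 and 1456 CPM in dorsal E7, 1885 and 1695 in dorsal E9, 1280.0 and 1320.2 in thigh E9, 1929 and 1682 in wing E9, 1623 and 1587 in scale E9 and 2244 and 1729 in scale E11. RPLP1 stood at 1155 and 1231, 1668 and 1427, 1166 and 2002, 1445 and 1309.8, 1504 and 1379 and 2036 and 1683 CPM in the same order. RPLP2 stood at 677 and 734, 939 and 805, 682 and 742, 1084 and 953, 811 and 775 and 946 and 803 CPM. RPLP0 and RPLP1 stood higher in the older skin of both regions without overlap, and RPLP2 did so in dorsal skin but overlapped in scale skin. None of the 3 passed in any pairwise comparison with all libraries. Unlike most of the family, RPLP0 and RPLP2 were nearly level between the thigh replicates.

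Set relative to the median ribosomal protein gene of each library, the family showed few differences of its own. With all 12 libraries 0 of 65 were called among the groups in limma, against 19.9% of all rows on that scale, and 0 had an unadjusted p under 0.05. The edgeR test was not run on that scale. Without thigh replicate 2, 3 were called among the groups, against 77.1% of all rows: RPL7L1, RPLP1 and RPL10L. RPL7L1 was higher in thigh replicate 1 than in dorsal E9 (0.51 ± 0.18, adjusted p = 0.0348 in limma, as were 40.3% of all rows), RPLP1 was lower in the wing than in thigh replicate 1 (-0.50 ± 0.17, adjusted p = 0.0221, as were 57.8%), and RPL10L was lower in the wing than in dorsal E9 (-0.49 ± 0.16, adjusted p = 0.0352, as were 21.7%). Without thigh replicate 1 the count among the groups was 15, against 78.3% of all rows. This scaling was chosen after the data were seen, and it removes whatever the family shares. It also moves every other row by the family median, so that the shares of all rows called on that scale depend on the scaling itself.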

How the data were processed

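RNA-seq of 12 libraries, 2 in each of 6 groups assigned from the sample labels, was read from 1 deposited table of 12297 transcript rows, which the authors gave as a CPM signal per library. The submitters' processing notes name TopHat2, Partek, HTSeq, edgeR and the build galGal4, without versions or roles. Strand use in counting is not given in the sources used here. Every column matched 1 sample label, and 0 were left unmatched.

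CPM values came out as whole multiples of the value of 1 read within 0.0055 CPM, which gave 13164609 to 20641980 recovered reads per library. One read was worth 0.0475 to 0.0736 CPM, and a count of 3 reads, the floor, 0.143 to 0.221 CPM. This covers counting error only.

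The filter on low values kept 12277 rows that reached 1 CPM in 2 or more libraries and removed 20. Differences were tested with limma 3.58.1 (R 4.3.3) on log2(CPM + 1), with 1 mean per group, a mean-variance trend and Benjamini-Hochberg adjustment over all rows tested, two-sided, for 7 contrasts and an F test over the groups. A fold on that scale understates changes of low rows. Recovered reads were tested with edgeR 4.0.16. The method was tested on simulated data. Tables were handled with Python 3.11.15, pandas 2.3.3, numpy 2.4.6 and scipy 1.17.1, and plots made with matplotlib 3.10.9.

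Symbols were looked up in the RefSeq gene table of GRCg7b for chromosomes, and no coordinates were taken from it. In the table, 317 rows share a symbol with another row, and these are listed by transcript identifier. The genes named were, per comparison, up to 4 called without overlap in each direction, the 6 with the widest and the 3 with the smallest spread, paralogs with their parents, the stalk genes, the Z-linked genes, the 10 rows most alike and up to 3 called genes per list. Others named in the text were chosen after their values were seen. The members and gene lists were chosen with earlier results of these data known. Alternatives were other scalings, filters and pseudocounts, a replicate block, fits on the libraries compared alone, and leaving out libraries. The fits without both thigh libraries and relative to the family median were added after seeing the data.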

Additional observations from a re-analysis of the deposited data

How the results depend on the processing

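The number of ribosomal protein genes called depended on the thigh libraries. Counts in this section are given without the share of all rows called under the same setting. They can therefore not be read as results about the family alone. The median difference with age, which the thigh libraries do not enter, stayed positive whichever library was left out. Leaving out each library in turn, the count called among the groups lay between 3 and 62, for scale against feather skin between 0 and 37, for the dorsal age step between 0 and 20, for the scale age step between 0 and 6, for the difference of these steps at 0, for thigh against dorsal skin between 0 and 39, for wing against dorsal skin between 0 and 4 and for wing against thigh skin between 0 and 56. The median log2 difference lay between -0.33 and -0.04, 0.20 and 0.43, 0.20 and 0.36 for the first 3 contrasts, between -0.49 and 0.41 for thigh against dorsal, 0.05 and 0.26 for wing against dorsal and -0.28 and 0.64 for wing against thigh skin. The summed share lay at 7.05% to 7.22% in dorsal E7, 8.22% to 9.43% in dorsal E9, 5.97% to 9.11% in thigh, 9.37% to 9.51% in wing, 7.69% in scale E9 and 8.84% to 9.66% in scale E11. Relative to the family median, the counts lay between 0 and 15 among the groups, 0 and 3 for scale against feather, 0 and 18 for thigh against dorsal, 0 and 1 for wing against dorsal and 0 and 15 for wing against thigh skin, and at 0 for the age steps and their difference.

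Without both thigh libraries 42 were called among the groups, 20 and 6 at the dorsal and scale age steps, 3 for wing against dorsal and 11 for scale against feather skin. Relative to the family median these fits gave 3 among the groups and 1 for wing against dorsal skin. Fits on the libraries compared alone gave 25 and 2 for the age steps, 3 for wing against dorsal and 0 for thigh against dorsal and for wing against thigh skin. Quantile normalization gave 13 among the groups, 1 for scale against feather, 4 for the dorsal age step, 16 for thigh against dorsal, 1, which was lower, for wing against dorsal and 14 for wing against thigh skin, with shares of 7.61% in dorsal E7, 9.02% in dorsal E9, 8.89% in wing and 7.91% in scale E9, so that dorsal E9 stood above the wing. Scaling to rows neither ribosomal nor mitochondrial gave 9 for thigh against dorsal and 8 for wing against thigh skin. The family was also expressed as a percent of the CPM of those rows. It stood at 8.10% in dorsal E7, 10.1% in dorsal E9, 10.98% in wing, 8.78% in scale E9 and 10.6% in scale E11. That total leaves out the family and the mitochondrial rows, so that these percents are higher than shares of the library. The filter at 5 CPM gave 7.71% in scale E9. The cause of the changed counts was not tested, apart from the fewer libraries in the fits that leave some out.

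The replicate block gave 1 for scale against feather skin and 1 for the dorsal age step. Same-numbered libraries had correlations of replicate differences from -0.10 to 0.23 between groups, so that the numbers were not taken as pairs.

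With 2 libraries a group, small differences could not be detected, and the spread is shared over groups that differ in it.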
